A study of Mus musculus with 8 samples.

Results

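Matrix metalloproteinases are the secreted or membrane-anchored enzymes that cut the extracellular matrix, and the tissue inhibitors of metalloproteinases (TIMPs) hold them in check. Described here are 6 metalloproteinase genes (Mmp2, Mmp3, Mmp9, Mmp13, Mmp14 and Mmp19) and the 4 inhibitor genes (Timp1, Timp2, Timp3 and Timp4). They were taken by name, as the entries of the deposited expression table whose Ensembl gene identifier carries one of these symbols in the annotation. All 10 were found among 54532 genes. Of these, 9 were among the 12994 genes that were tested, which needed at least 1 FPKM (fragments per kilobase of exon, scaled to the counted reads of the library, a unit corrected for gene length and depth) in at least 2 libraries.

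RNA sequencing was done on mouse cardiac fibroblasts at day 7 in 4 groups of 2 libraries. EphrinB2-overexpression cells under osteogenic differentiation were set beside vector cells under osteogenic differentiation, and EphrinB2-overexpression cells in complete medium beside vector cells in complete medium. EphrinB2, encoded by Efnb2, is a membrane-bound ligand of Eph receptors; the labels name neither the vector, the promoter that drives Efnb2, the mouse strain nor what either medium holds. The labels do not tell whether the libraries of a group are separate cultures, and p-values therefore reflect library-to-library spread that can be technical.

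Metalloproteinases are made as inactive pro-enzymes with a zinc ion in the active site, and removal of the pro-peptide switches them on. Mmp2 and Mmp9 are the gelatinases, which cut denatured collagen and basement membrane. Mmp3 is a stromelysin with broad substrates that also activates other pro-enzymes, Mmp13 is the main interstitial collagenase of rodents, and Mmp14 sits in the cell membrane, cuts fibrillar collagen and activates pro-Mmp2 with the help of Timp2. TIMPs block the active site. Timp3 differs from the others in that it binds to the matrix and also inhibits ADAM and ADAMTS proteases. In the heart both fibroblasts and macrophages make these proteins, and their balance accompanies matrix remodelling.

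The libraries held 16493910 to 20550771 counted reads as estimated from the FPKM values. Efnb2 measured 5.02 and 18.3 FPKM in EphrinB2 cells against 1.39 and 1.27 FPKM in vector cells under osteogenic differentiation, and 31.3 and 32.8 FPKM in EphrinB2 cells against 6.30 and 5.56 FPKM in vector cells in complete medium. All 10 fibroblast markers fixed for the check (Col1a1, Pdgfra, Tcf21 and others) were at or above 1 FPKM in every library. The partner libraries of EphrinB2 cells differed more than those of vector cells: the SD of their log2 difference over tested genes was 0.66 in EphrinB2 and 0.23 in vector cells under osteogenic differentiation, and 0.52 in EphrinB2 and 0.26 in vector cells in complete medium. In EphrinB2 cells this difference rose with exon length (Spearman's rho across genes 0.51 under osteogenic differentiation and 0.44 in complete medium). EphrinB2 osteogenic replicate 1 and EphrinB2 complete replicate 2 were known from earlier results of these data to stand apart, so values are given per library, and results that change without them are marked. In fits that leave out 1 library, the lone library of its group is assumed to vary like the other groups.

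Osteogenic differentiation went with less Timp3 and Mmp14 in both kinds of cell. The scarce Mmp13 also fell in both kinds of cell and the scarce Mmp9 rose in vector cells, but each entered the test only through libraries of the medium in which it was high, so that its direction was partly fixed by the filter. Timp3 fell 16.0-fold in EphrinB2 and 9.24-fold in vector cells as a ratio of group means, which was the 2nd and the 8th lowest log2 change among 12994 genes tested. The value in EphrinB2 cells rests on replicate 1 under osteogenic differentiation, without which the fall was 9.83-fold. Mmp14 fell 2.27-fold in EphrinB2 and 1.95-fold in vector cells. Between EphrinB2 and vector cells 0 of 9 members passed the threshold in limma, an adjusted p under 0.05, under osteogenic differentiation (0% of all tested genes) and 0 of 9 in complete medium (0.0077%). The overexpressed Efnb2 did not pass either. Its log2 difference was 2.21 under osteogenic differentiation (limma, adjusted p = 0.567) and 2.26 in complete medium. A comparison that does not call Efnb2 cannot show that the members are unchanged. Mmp9, at 1.46 and 0.396 FPKM in EphrinB2 cells against 4.15 and 3.88 FPKM in vector cells under osteogenic differentiation, had the 21st lowest log2 change of all tested genes in that comparison, with an adjusted p of 0.567 (limma). Without the vector osteogenic libraries Mmp9 would have missed the filter, so this direction too was partly fixed by it.

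**Figure D1:**
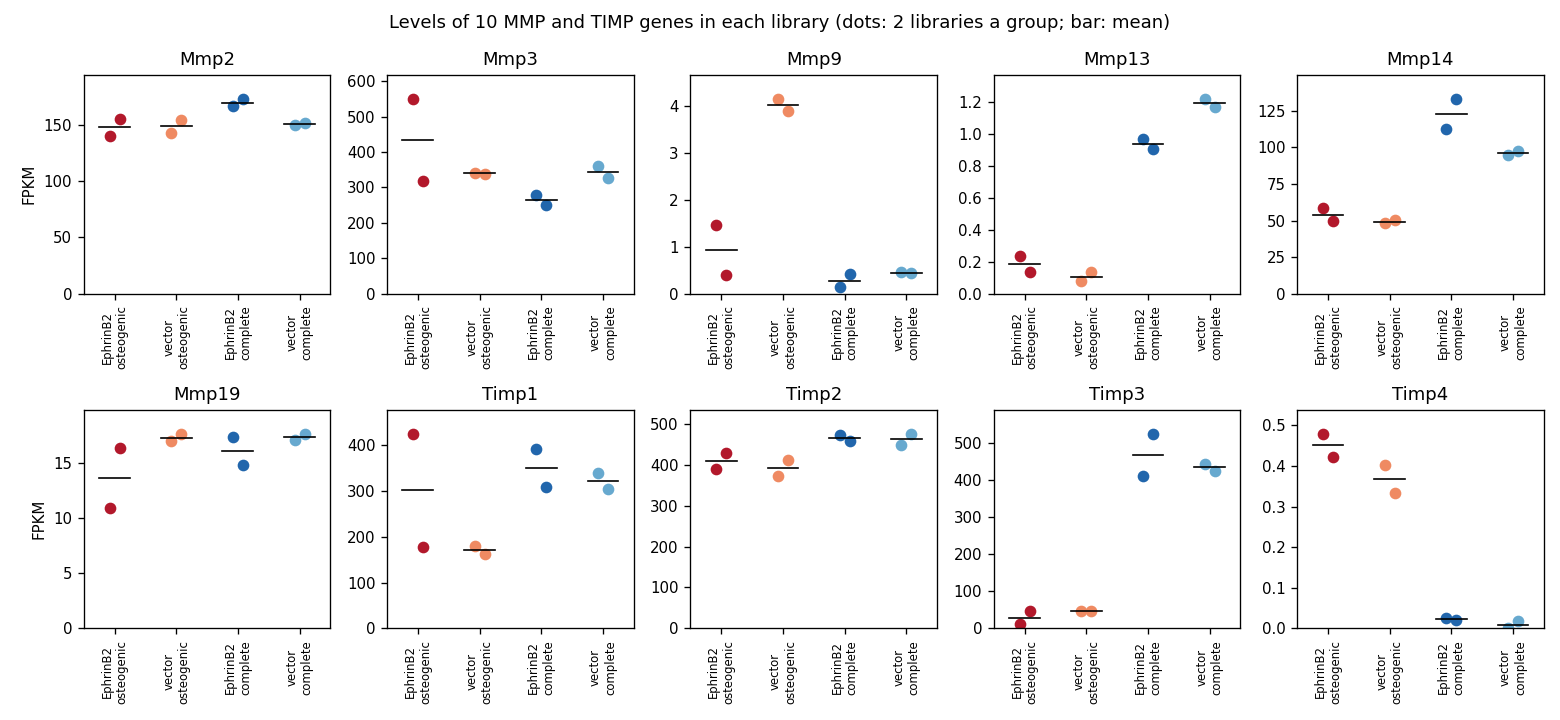
FPKM of the 10 genes in each library (dots), with the group mean as a bar; groups run from EphrinB2 osteogenic to vector complete on the horizontal axis, and every vertical axis starts at 0. Timp3, Mmp14 and Mmp13 are lower and Timp4 is higher in all 4 osteogenic libraries than in the 4 libraries in complete medium, and Mmp9 is highest in both vector osteogenic libraries.

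In vector cells in complete medium the level per exon length was highest for Timp2 (462 ± 18.6 FPKM, SD, n = 2), followed by Timp3 (433 ± 13.7), Mmp3 (343 ± 24.5) and Timp1 (322 ± 24.4). Timp2 and Timp3 lay close, with the lowest Timp2 library at 449 FPKM and the highest Timp3 library at 443 FPKM, and Mmp3 and Timp1 overlapped. Mmp2 (151 ± 1.15 FPKM), Mmp14 (96.2 ± 1.70) and Mmp19 (17.4 ± 0.369) came next. Mmp13 (1.19 ± 0.0363 FPKM), Mmp9 (0.446 ± 0.00838) and Timp4 (0.00912 ± 0.0129) were near the lower end of detection. In that group Mmp13 rested on 61 and 58 estimated reads and Mmp9 on 30 and 29.

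Mmp2 (ENSMUSG00000031740, GRCm38 chromosome 8, 92827291 to 92853420, plus strand), the constitutive gelatinase of fibroblasts, showed little difference between groups. It measured 140 and 155 FPKM in EphrinB2 cells and 143 and 154 FPKM in vector cells under osteogenic differentiation, and 166 and 173 FPKM in EphrinB2 cells and 150 and 151 FPKM in vector cells in complete medium. Both EphrinB2 libraries in complete medium lay above all others, by at most 1.15-fold in group means, and no comparison passed the threshold (limma, adjusted p = 0.419 to 1.0 over the media and EphrinB2 comparisons). The log2 difference between media was -0.20 (SE 0.16) in EphrinB2 cells and -0.02 (SE 0.16) in vector cells.

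Mmp9 (ENSMUSG00000017737, chromosome 2, 164940780 to 164955850, plus strand), the gelatinase that is inducible in many cells and abundant in neutrophils and macrophages, had the largest ratio of group means between EphrinB2 and vector cells among the members. Under osteogenic differentiation it measured 1.46 FPKM in EphrinB2 replicate 1 and 0.396 FPKM in replicate 2, from an estimated 106 and 27 reads. The vector libraries under osteogenic differentiation measured 4.15 and 3.88 FPKM, from 284 and 266 reads. In complete medium the levels were 0.132 and 0.411 FPKM in EphrinB2 cells, from 9 and 24 reads, and 0.452 and 0.440 FPKM in vector cells, from 30 and 29 reads. Both vector osteogenic libraries thus stood above the other 6, EphrinB2 osteogenic replicate 1 came next, and EphrinB2 osteogenic replicate 2 lay within the range of the libraries in complete medium. By group mean the order was vector osteogenic, EphrinB2 osteogenic, vector complete and EphrinB2 complete, and EphrinB2 osteogenic and vector complete overlapped.

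In vector cells Mmp9 was 8.99-fold higher under osteogenic differentiation than in complete medium as a ratio of mean FPKM. On the tested scale of log2(FPKM + 1), which understates the change of low genes, it rose by 1.79 (SE 0.28, limma, adjusted p = 0.0118). Mmp9 reached 1 FPKM only in osteogenic libraries, so a lower level in complete medium was a condition of being tested, and the filter of 1 FPKM in at least 4 libraries left it untested. The estimate moved by less than 0.05 without any 1 of the 4 vector libraries, at 1.76 to 1.83, but each of these fits lost the threshold (adjusted p = 0.0989 to 0.104), and the vector libraries alone gave an adjusted p of 0.000419; over all alternatives it ran from 9.86e-06 to 0.104. In EphrinB2 cells the media differed by 0.55 (SE 0.28, adjusted p = 0.221), with libraries that overlap; without EphrinB2 osteogenic replicate 2 the difference was 0.96 (adjusted p = 0.0155), and over all alternatives the adjusted p ran from 0.0155 to 0.699.

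EphrinB2 cells had less Mmp9 than vector cells under osteogenic differentiation in both libraries, with a log2 difference of -1.44 (SE 0.28, unadjusted p = 0.00143, limma adjusted p = 0.567). The groups did not overlap, and the ratio of means was 4.33-fold, or 10.1-fold without EphrinB2 osteogenic replicate 1 and 2.75-fold without replicate 2. Over all alternatives the adjusted p ran from 0.0285 to 0.867: it passed the threshold without EphrinB2 osteogenic replicate 2, at -1.03 (adjusted p = 0.0285), a fit in which 2768 of 12873 genes passed, and it did not pass without EphrinB2 osteogenic replicate 1, at -1.84 (adjusted p = 0.759). The difference of the medium effect between EphrinB2 and vector cells, tested as an interaction, was -1.24 (SE 0.39, unadjusted p = 0.0164, adjusted p = 0.746). Mmp9 would not have passed the filter without the vector osteogenic libraries. Its direction under osteogenic differentiation and in the interaction was therefore partly fixed by the filter. In complete medium EphrinB2 and vector cells differed by -0.19 (SE 0.28, adjusted p = 1.0).

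Summed levels of 11 macrophage markers (C1qa, Cd68, Mrc1, Adgre1 and others, without the very abundant Lyz2) were 1748 and 930 FPKM in EphrinB2 and 1038 and 1132 FPKM in vector cells under osteogenic differentiation, and 361 and 268 FPKM in EphrinB2 and 429 and 374 FPKM in vector cells in complete medium. With Lyz2 all 12 markers were above 0 in every library. With osteogenic differentiation 10 of 12 rose in EphrinB2 and 7 of 12 in vector cells (limma, adjusted p under 0.05). Of all tested genes 6.36% rose in EphrinB2 and 4.41% in vector cells. Cd163, counted as risen in both, entered the test only through osteogenic libraries. The sum was higher under osteogenic differentiation in both kinds of cell. Among osteogenic libraries it was highest in EphrinB2 replicate 1, whose Mmp9 level was below that of both vector libraries. C1qa and C1qb, at 830 and 631 FPKM, made up most of the sum in that library. Cd68 and Cd14 were also higher there than in both vector osteogenic libraries, and Fcgr1 lay between them. Adgre1, Csf1r, Ptprc, Cd163, Mrc1 and Mertk were lower there than in both vector osteogenic libraries. Marker levels were not corrected for the trend on exon length between EphrinB2 osteogenic replicate 1 and its partner. The FPKM of all genes summed to 360626 in that library, against 253613 to 269809 in the other libraries. Summed neutrophil markers, 10 genes, were 24.2 and 2.45 FPKM in EphrinB2 and 2.49 and 2.53 FPKM in vector cells under osteogenic differentiation, and 3.22 and 3.38 FPKM in EphrinB2 and 1.63 and 1.60 FPKM in vector cells in complete medium. Of these 10 genes 9 were highest in EphrinB2 osteogenic replicate 1, led by S100a9 (9.04 FPKM), S100a8 (7.29 FPKM) and Camp (4.94 FPKM), and Csf3r was highest in replicate 2. In both vector osteogenic libraries, where Mmp9 was highest, 5 of the 10 were listed at 0 (S100a9, Ly6g, Ltf, Cxcr2 and Retnlg). The part of these cells in the Mmp9 result was not tested, and in RNA of a whole culture fewer cells of a type and less RNA per cell cannot be told apart.

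**Figure D2:**
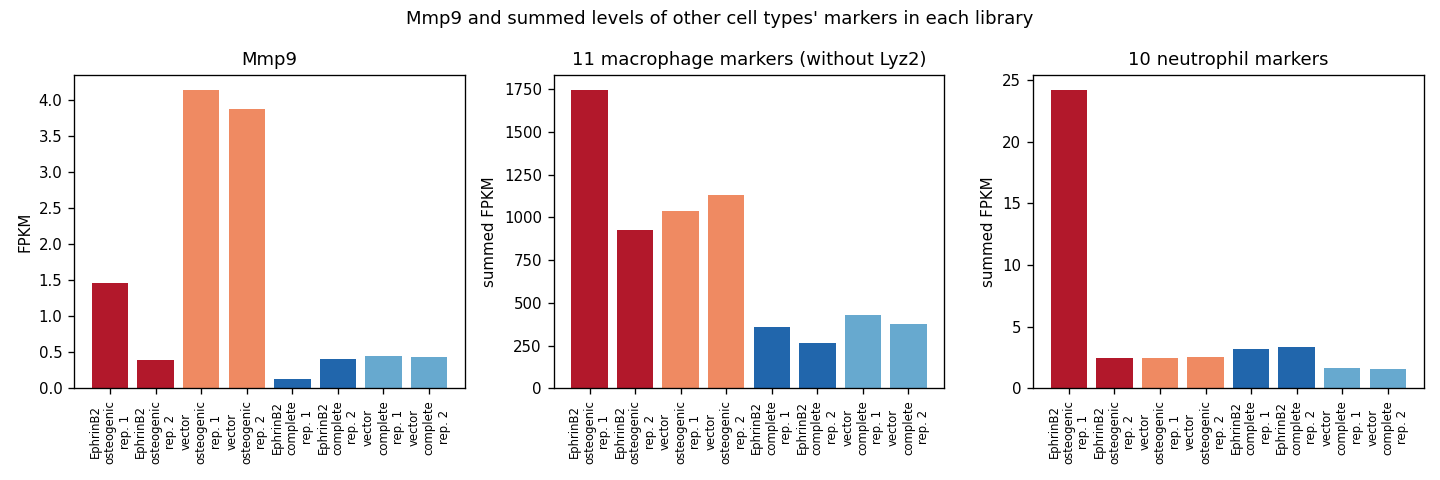
Mmp9 level (left, FPKM) beside the summed FPKM of 11 macrophage markers (middle) and of 10 neutrophil markers (right), 1 bar per library, from EphrinB2 osteogenic to vector complete. Mmp9 is highest in the vector osteogenic libraries (4.15 and 3.88 FPKM), whereas both marker sums are highest in EphrinB2 osteogenic replicate 1 (1748 and 24.2 FPKM). C1qa and C1qb (830 and 631 FPKM) make up most of that macrophage sum. Adgre1, Csf1r, Ptprc, Cd163, Mrc1 and Mertk are lower in that library than in both vector osteogenic libraries, and Cd68 and Cd14 are higher. Marker levels are not corrected for the trend on exon length between that library and its partner.

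The genes whose profile over the 8 libraries was most like that of Mmp9, among 9435 other coding genes with a mean of at least 2 FPKM, were Pfkfb4, an enzyme that sets the level of a glycolysis activator (Pearson's r of log2 values 0.955), Tapbpl, a chaperone of antigen loading (0.954), and Ptafr, the receptor of platelet-activating factor (0.906). Ptafr measured 2.17 and 2.17 FPKM in EphrinB2 and 2.98 and 3.34 FPKM in vector cells under osteogenic differentiation, and 1.17 and 1.38 FPKM in EphrinB2 and 1.72 and 1.86 FPKM in vector cells in complete medium. These correlations describe 8 libraries that share media and processing.

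Mmp3 and Mmp13 lie in a run of 10 metalloproteinase genes on chromosome 9 that spans 427 kb and holds no other coding gene. Mmp3 (ENSMUSG00000043613, 7445822 to 7455975, plus strand), the stromelysin, was the most abundant metalloproteinase in every library, with 549 and 319 FPKM in EphrinB2 and 341 and 338 FPKM in vector cells under osteogenic differentiation, and 278 and 250 FPKM in EphrinB2 and 361 and 326 FPKM in vector cells in complete medium. Only EphrinB2 osteogenic replicate 1 stood well above the rest. No comparison of Mmp3 passed the threshold; the media differed by 0.66 (SE 0.28, limma, adjusted p = 0.162) in EphrinB2 cells and -0.01 (SE 0.28, adjusted p = 0.992) in vector cells. Without EphrinB2 osteogenic replicate 2, which leaves the library that stood apart, the difference in EphrinB2 cells was 1.06 (adjusted p = 0.00667, range over all alternatives 0.00667 to 0.487). With the trend of each library on gene length removed, the EphrinB2 osteogenic libraries stood at 8.59 and 8.35 on the log2 scale, against 9.10 and 8.32 as deposited.

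Mmp13 (ENSMUSG00000050578, chromosome 9, 7272514 to 7283331, plus strand), the collagenase, was far scarcer, and its levels split by medium. It measured 0.237 and 0.136 FPKM in EphrinB2 and 0.0773 and 0.135 FPKM in vector cells under osteogenic differentiation, from 13, 7, 4 and 7 estimated reads in that order. In complete medium it measured 0.969 and 0.907 FPKM in EphrinB2 and 1.22 and 1.17 FPKM in vector cells, from 50, 40, 61 and 58 reads. All 4 osteogenic libraries lay below all 4 libraries in complete medium, and the ratio of means was 5.04-fold in EphrinB2 and 11.2-fold in vector cells. It fell by 0.71 (SE 0.16, limma, adjusted p = 0.0326) in EphrinB2 and by 0.99 (SE 0.16, adjusted p = 0.0129) in vector cells on the log2(FPKM + 1) scale. Mmp13 entered the test only through the vector libraries in complete medium, which alone reached 1 FPKM, so a lower level elsewhere was a condition of being tested. The call in EphrinB2 cells was lost without EphrinB2 complete replicate 1 (-0.69, adjusted p = 0.0647) or 2 (-0.73, adjusted p = 0.0981) and without vector osteogenic replicate 1 or 2 (-0.71, adjusted p = 0.0814 and 0.0842). It was also lost with quantile normalization (adjusted p = 0.103), a pseudocount of 0.1 (0.057), only the EphrinB2 libraries (0.243) and quality weights (0.403), and the adjusted p ranged from 0.0163 to 0.403 over all alternatives. The call in vector cells was lost without vector osteogenic replicate 1 (-0.95, adjusted p = 0.122) or 2 (-1.02, adjusted p = 0.113), with a range of 0.00019 to 0.122.

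The windows around both starts are shown because both members of the run share promoter letters at very different levels. Each runs from 250 bases before to 50 bases after the RefSeq start (GRCm38.p6, plus strand), chr9:7272264-7272563 for Mmp13 and chr9:7445572-7445871 for Mmp3. Capitals mark matches to TGAGTCA on either strand, the consensus of the AP-1 factors.
Mmp13: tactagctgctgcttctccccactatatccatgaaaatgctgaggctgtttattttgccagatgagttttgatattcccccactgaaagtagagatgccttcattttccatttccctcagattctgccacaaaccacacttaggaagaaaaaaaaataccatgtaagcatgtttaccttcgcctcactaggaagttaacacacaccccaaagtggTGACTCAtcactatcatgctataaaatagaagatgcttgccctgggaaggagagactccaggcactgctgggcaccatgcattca
Mmp3: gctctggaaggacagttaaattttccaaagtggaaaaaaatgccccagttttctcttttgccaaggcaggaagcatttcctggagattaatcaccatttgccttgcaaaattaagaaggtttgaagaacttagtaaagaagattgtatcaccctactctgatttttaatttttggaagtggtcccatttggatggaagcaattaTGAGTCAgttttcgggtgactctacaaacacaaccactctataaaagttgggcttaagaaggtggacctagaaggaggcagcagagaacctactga
The match begins 35 bases before the start in Mmp13 and 46 bases before it in Mmp3, and both windows hold TATAAA closer to the start. Of all 32851 windows of this length, 5.2% hold TGAGTCA and 13.6% hold TATAAA on either strand. Along the run, 7 of the 10 genes hold both in a window (Mmp13, Mmp12, Mmp1b, Mmp3, Mmp1a, Mmp10 and Mmp7), and Mmp8, Mmp27 and Mmp20 lack TGAGTCA. These 7 include genes that fell, the abundant Mmp3 and a gene listed at 0 in every library, and a match is a description of letters only.

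The 10 genes of the run did not move together. Mmp12, the macrophage elastase, measured 2.10 and 1.73 FPKM in EphrinB2 and 2.18 and 1.61 FPKM in vector cells under osteogenic differentiation, and 6.53 and 6.85 FPKM in EphrinB2 and 9.06 and 9.09 FPKM in vector cells in complete medium. It fell like its neighbour Mmp13, by 1.40 in EphrinB2 (limma, adjusted p = 0.00262) and by 1.81 in vector cells (adjusted p = 0.0012), while the macrophage marker sums above were higher under osteogenic differentiation. The part of macrophages in the Mmp12 level was not tested. Mmp1b, a rodent relative of the interstitial collagenase, was listed at 0 in both EphrinB2 libraries under osteogenic differentiation, where 3 reads would be 0.101 and 0.107 FPKM, and at 0.0713 and 0 FPKM in vector cells; in complete medium it measured 0.786 and 0.544 FPKM in EphrinB2 and 0.479 and 0.853 FPKM in vector cells, and it was too low to be tested. Mmp8, the neutrophil collagenase, went the other way, with 3.31 and 3.87 FPKM in EphrinB2 and 5.48 and 5.37 FPKM in vector cells under osteogenic differentiation against 1.62 and 1.78 FPKM in EphrinB2 and 2.49 and 1.64 FPKM in vector cells in complete medium. It rose by 0.76 in EphrinB2 (adjusted p = 0.0341) and by 1.08 in vector cells (adjusted p = 0.0127). Mmp27 rose by 1.05 in EphrinB2 cells (adjusted p = 0.0329) and differed by 0.99 in vector cells (adjusted p = 0.0515). Mmp27 reached 1 FPKM only in osteogenic libraries, so its direction was partly fixed by the filter. Mmp1a and Mmp10 stayed below 1 FPKM, and Mmp20 and Mmp7 were listed at 0 in all 8 libraries.

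**Figure D3:**
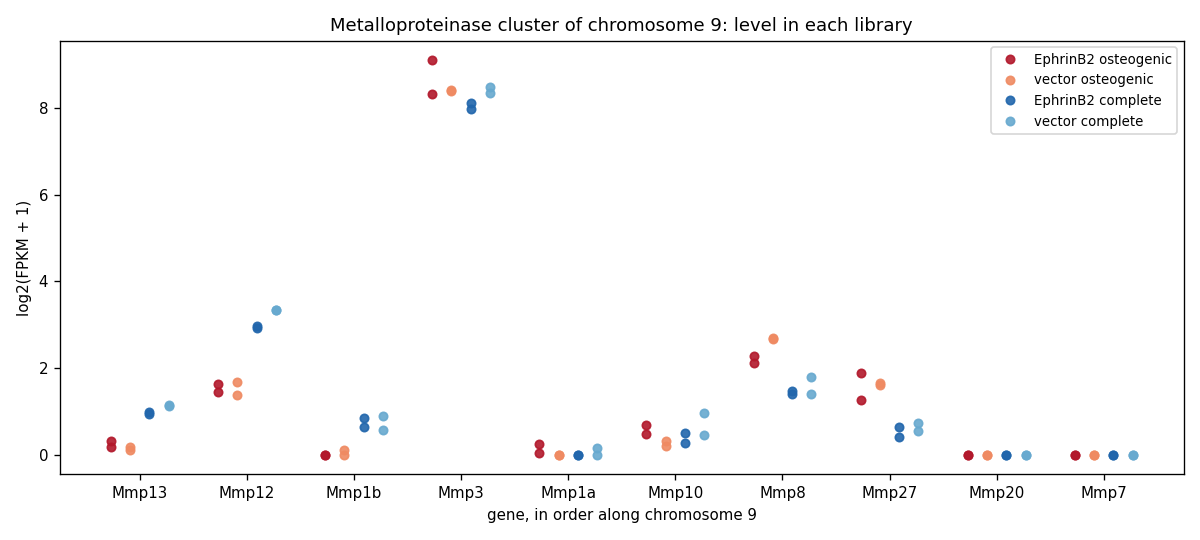
Level as log2(FPKM + 1) of the 10 metalloproteinase genes of the chromosome 9 run in their order along the chromosome, with 2 dots per group and gene. Mmp13, Mmp12 and Mmp1b are lower and Mmp8 and Mmp27 higher in the osteogenic libraries, while Mmp3 stands far above its neighbours in every library.

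Mmp14 (ENSMUSG00000000957, chromosome 14, 54431612 to 54445364, plus strand), the membrane-type enzyme that activates pro-Mmp2, measured 58.6 and 49.5 FPKM in EphrinB2 and 48.2 and 50.3 FPKM in vector cells under osteogenic differentiation. In complete medium it measured 112 and 133 FPKM in EphrinB2 and 95.0 and 97.4 FPKM in vector cells. The 4 osteogenic libraries lay below all 4 others, and EphrinB2 cells lay above vector cells in complete medium with no overlap. Mmp14 fell with osteogenic differentiation by 1.17 (SE 0.18, limma, adjusted p = 0.00933) in EphrinB2 and by 0.95 (SE 0.18, adjusted p = 0.0231) in vector cells. EphrinB2 and vector cells differed by 0.34 (SE 0.18, adjusted p = 1.0) in complete medium and 0.13 (SE 0.18, adjusted p = 0.704) under osteogenic differentiation. The call in vector cells was lost without any 1 of the 4 vector libraries, at -0.98 to -0.92 (adjusted p = 0.201 to 0.224, range over all alternatives 2.3e-05 to 0.224), and the call in EphrinB2 cells was lost when only the EphrinB2 libraries were fitted (adjusted p = 0.178) or libraries were weighted by quality (adjusted p = 0.0549).

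Mmp19 (ENSMUSG00000025355, chromosome 10, 128790910 to 128800824, plus strand), a secreted enzyme of basement membrane components, stood at 10.9 and 16.4 FPKM in EphrinB2 and 17.0 and 17.7 FPKM in vector cells under osteogenic differentiation, and at 17.4 and 14.8 FPKM in EphrinB2 and 17.1 and 17.7 FPKM in vector cells in complete medium. EphrinB2 osteogenic replicate 1 was the lowest library and the rest lay within 14.8 to 17.7 FPKM. No comparison passed the threshold, with a log2 difference between media of -0.24 (SE 0.21, limma, adjusted p = 0.431) in EphrinB2 and -0.00 (SE 0.21, adjusted p = 0.997) in vector cells. Without EphrinB2 osteogenic replicate 2 the difference in EphrinB2 cells was -0.52 (adjusted p = 0.0341, range over all alternatives 0.0341 to 0.926). Tmem198b, on the opposite strand, shares 789 exonic bases with Mmp19 and measured 2.45 to 3.69 FPKM, and without a stated strand setting reads in the shared bases cannot be told apart.

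Among the inhibitors, Timp3 (ENSMUSG00000020044, chromosome 10, 86300372 to 86349506, plus strand) showed the largest difference between media among the 9 tested members on the log2(FPKM + 1) scale. Under osteogenic differentiation it measured 10.8 FPKM in EphrinB2 replicate 1 and 47.5 FPKM in replicate 2, from an estimated 1804 and 7454 reads. The vector libraries under osteogenic differentiation measured 46.4 and 47.3 FPKM, from 7319 and 7461 reads. In complete medium the levels were 410 and 523 FPKM in EphrinB2 cells, from 64435 and 70283 reads, and 443 and 424 FPKM in vector cells, from 67611 and 64184 reads. Every osteogenic library lay far below every library in complete medium, and EphrinB2 osteogenic replicate 1 lay far below the other osteogenic libraries. Within complete medium the vector libraries lay between both EphrinB2 libraries, and within osteogenic medium EphrinB2 replicate 2 stood beside the vector libraries. Timp3 lies within Syn3 on the opposite strand, with 1733 shared exonic bases, and Syn3 measured 0 to 0.271 FPKM. Without a stated strand setting reads in these shared bases cannot be told apart.

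Timp3 fell by 4.28 (SE 0.59, limma, adjusted p = 0.00641) in EphrinB2 and by 3.18 (SE 0.59, adjusted p = 0.0226) in vector cells. Without EphrinB2 osteogenic replicate 1 the difference in EphrinB2 cells was -3.26, close to that in vector cells, and without replicate 2 it was -5.30. The call in EphrinB2 cells was lost without EphrinB2 complete replicate 2 (-4.10, adjusted p = 0.054) and with only the EphrinB2 libraries fitted (adjusted p = 0.0599), and over all alternatives its adjusted p ran from 0.000179 to 0.0599. In vector cells it was lost with no filter on low values (adjusted p = 0.0739) and without any 1 of the 4 vector libraries (-3.21 to -3.15, adjusted p = 0.14 to 0.154), while the vector libraries alone gave 6.86e-05, within a range of 3.58e-06 to 0.154.

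EphrinB2 and vector cells under osteogenic differentiation differed in Timp3 by -1.0 (SE 0.59, limma, adjusted p = 0.567), a value that rests on EphrinB2 osteogenic replicate 1: without it the difference was 0.02 (adjusted p = 1.0), and without replicate 2 it was -2.02 (adjusted p = 0.0201, the lowest over all alternatives, which reach 1.0). In complete medium the difference was 0.10 (SE 0.59, adjusted p = 1.0), and the interaction was -1.10 (SE 0.83, adjusted p = 0.746). The partner libraries of EphrinB2 cells under osteogenic differentiation differed in Timp3 by 2.04 on the log2 scale, more than for 99.4% of tested genes. Timp3 has the longest exon length of the members, 8144 bases, and the partner difference of that group rose with exon length. With the length trend removed, the EphrinB2 osteogenic libraries stood at 3.89 and 5.59 on the log2 scale, so a gap of similar direction remained.

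The start of Timp3 and that of Mmp14 are shown as the promoters of the members that fell in both kinds of cell at levels well above the filter. The windows are chr10:86300162-86300461 for Timp3 and chr14:54431348-54431647 for Mmp14 (GRCm38.p6, plus strand, RefSeq), and capitals mark matches to the GC box letters GGGCGG on either strand.
Timp3: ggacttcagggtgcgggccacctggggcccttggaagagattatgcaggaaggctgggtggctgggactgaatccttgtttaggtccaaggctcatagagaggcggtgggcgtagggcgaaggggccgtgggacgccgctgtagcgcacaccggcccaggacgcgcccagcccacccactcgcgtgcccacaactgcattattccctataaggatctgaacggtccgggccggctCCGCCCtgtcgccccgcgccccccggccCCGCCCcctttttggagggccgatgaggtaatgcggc
Mmp14: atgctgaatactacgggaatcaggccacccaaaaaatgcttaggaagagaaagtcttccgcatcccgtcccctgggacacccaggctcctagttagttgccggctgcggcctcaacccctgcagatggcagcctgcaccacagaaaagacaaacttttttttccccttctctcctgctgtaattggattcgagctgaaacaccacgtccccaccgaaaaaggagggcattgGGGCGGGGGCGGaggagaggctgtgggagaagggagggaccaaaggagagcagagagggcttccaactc
Both windows hold 2 matches, and 35.7% of all 32851 windows hold at least 1. Neither holds TGAGTCA or TATAAA. The Mmp14 window also has 2 matches to CCAAT, found in 37.4% of windows, of which the second shares a base with the first GC box.

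The genes most like Timp3 over the 8 libraries were Cald1, an actin-binding regulator of contraction (Pearson's r of log2 values 0.999), Unc5b, a netrin receptor (0.997), and Rbms1, an RNA-binding protein (0.996). Cald1 measured 56.6 and 93.6 FPKM in EphrinB2 and 91.3 and 88.6 FPKM in vector cells under osteogenic differentiation, and 200 and 215 FPKM in EphrinB2 and 204 and 206 FPKM in vector cells in complete medium. The low level of EphrinB2 osteogenic replicate 1 recurs in Cald1 with a smaller range than in Timp3.

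Timp1 (ENSMUSG00000001131, chromosome X, 20870166 to 20874735, plus strand), the inducible inhibitor, measured 425 and 179 FPKM in EphrinB2 and 179 and 162 FPKM in vector cells under osteogenic differentiation, and 391 and 308 FPKM in EphrinB2 and 339 and 304 FPKM in vector cells in complete medium. In vector cells both osteogenic libraries lay below both libraries in complete medium, with a log2 difference of -0.91 (SE 0.39, limma, adjusted p = 0.272) that did not pass the threshold. It passed in the vector libraries alone (adjusted p = 0.00202) and without EphrinB2 osteogenic replicate 1 or 2 (adjusted p = 0.0195 and 0.0196), with a range of 0.000586 to 0.766 over all alternatives. In EphrinB2 cells replicate 1 under osteogenic differentiation was the highest library of all as deposited, and replicate 2 was at the vector level. The difference there was -0.33 (SE 0.39, adjusted p = 0.568), -0.96 (adjusted p = 0.0376) without replicate 1 and 0.29 (adjusted p = 0.247) without replicate 2. Timp1 has the shortest exon length of the members, 888 bases, and its partner gap of -1.25 in EphrinB2 osteogenic cells, opposite in sign to that of Timp3, was larger than for 94.1% of tested genes. With the length trend removed, the EphrinB2 osteogenic libraries stood at 8.18 and 7.54 on the log2 scale, against 8.73 and 7.49 as deposited. Replicate 1 then lay below every library in complete medium (8.32 to 8.56), and a smaller gap of the same direction remained.

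Timp2 (ENSMUSG00000017466, chromosome 11, 118301069 to 118355740, minus strand), which binds pro-Mmp2 to Mmp14, was the most even inhibitor. It measured 391 and 429 FPKM in EphrinB2 and 372 and 412 FPKM in vector cells under osteogenic differentiation, and 472 and 459 FPKM in EphrinB2 and 449 and 475 FPKM in vector cells in complete medium. All osteogenic libraries lay below all libraries in complete medium, but the ratio of means was only 1.14-fold in EphrinB2 and 1.18-fold in vector cells. The log2 difference was -0.18 (SE 0.18, limma, adjusted p = 0.482) in EphrinB2 and -0.24 (SE 0.18, adjusted p = 0.583) in vector cells.

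Timp4 (ENSMUSG00000030317, chromosome 6, 115241892 to 115252205, minus strand), best known from heart muscle, was scarce and did not reach the level for testing. It measured 0.479 and 0.422 FPKM in EphrinB2 and 0.403 and 0.333 FPKM in vector cells under osteogenic differentiation, from 58, 48, 46 and 38 estimated reads in that order. In complete medium it measured 0.0264 and 0.0206 FPKM in EphrinB2 and 0 and 0.0182 FPKM in vector cells, from 3, 2, 0 and 2 reads; the library at 0 allows up to 0.0272 FPKM at 3 reads. Each osteogenic library lay above every library in complete medium. With no filter on low values Timp4 was tested, and it rose by 0.50 (SE 0.05, limma, adjusted p = 0.00991) in EphrinB2 cells. In vector cells it rose by 0.44 (SE 0.05, adjusted p = 0.0169) in that setting. Both values rest on levels near the lower end of detection. Summed per group and scaled by depth, the reads were 19.1 times as many in EphrinB2 cells (95% exact interval 7.91 to 59.9) and 40.5 times as many in vector cells (10.9 to 340.1) under osteogenic differentiation, intervals that cover counting error only. Timp4 lies within Syn2 on the opposite strand, with 90 shared exonic bases, and Syn2 itself measured 0.611 to 1.08 FPKM. Summed cardiomyocyte markers, 7 genes, were 15.4 and 8.66 FPKM in EphrinB2 and 6.12 and 7.17 FPKM in vector cells under osteogenic differentiation. In complete medium they were 0.923 and 0.917 FPKM in EphrinB2 and 0.909 and 0.733 FPKM in vector cells. Under osteogenic differentiation the sum was nearly all Tnnt2, at 14.8 and 8.20 FPKM in EphrinB2 and 5.46 and 6.61 FPKM in vector cells. No other marker exceeded 0.660 FPKM in any library. Actn2 was at 0 in all 8 libraries and Myh6 in 6, and the part of these markers in the Timp4 level was not tested.

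**Figure D4:**
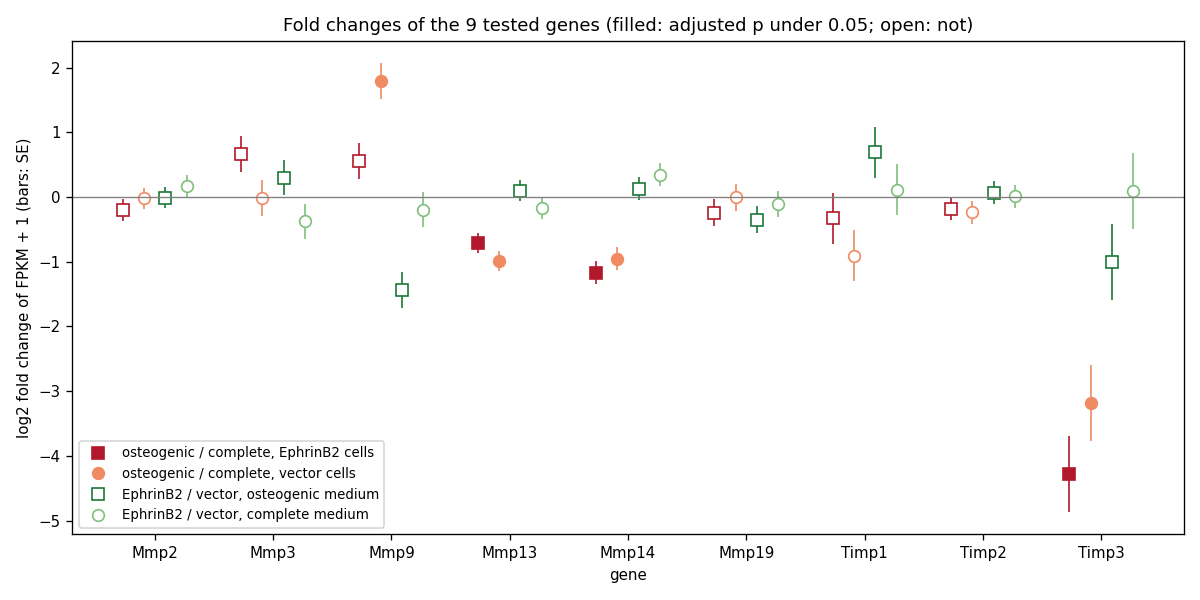
Log2 fold change of FPKM + 1 with its standard error for the 9 tested genes, for osteogenic against complete medium in each kind of cell and for EphrinB2 against vector in each medium; filled symbols passed the threshold and open ones did not. Timp3 has the largest falls (-4.28 and -3.18), Mmp9 the only rise past the threshold (1.79, vector cells), and every EphrinB2 against vector symbol is open.

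Counted over the members, 3 of 9 tested passed the threshold between media in EphrinB2 cells, all falling, where 11.8% of all tested genes passed, 6.36% rose and 5.44% fell. In vector cells 4 of 9 passed, 3 falling and 1 rising, where 7.52% of all tested genes passed, 3.11% fell and 4.41% rose. These counts include Mmp13 and, in vector cells, Mmp9, which passed the filter only where they were high; with at least 1 FPKM required in 4 libraries neither was tested and 2 calls were left in each kind of cell (Mmp14 and Timp3). With the medium effect averaged over both kinds of cell 4 of 9 passed, where 19.8% of all genes passed, 10.3% rose and 9.44% fell. The median log2 difference between media over the 9 members was -0.24 in EphrinB2 and -0.24 in vector cells, against 0.03 and -0.02 over all genes tested. For EphrinB2 against vector, where 0 of 9 passed in limma in each medium, 1 member (Mmp9) had an unadjusted p under 0.05 under osteogenic differentiation, as did 3.39% of all tested genes, and 0 members in complete medium, where 1.29% of genes did. The interaction gave 0 of 9 with 0% of all genes, and 1 member (Mmp9) at an unadjusted p under 0.05, as for 1.65% of genes. Mmp9 would not have been tested without the vector osteogenic libraries, where it was highest. An exact two-sided permutation test of 2 libraries against 2 cannot go below p = 0.333, so the 4 osteogenic libraries were also set against the 4 in complete medium by the same test. Mmp13, Mmp14, Timp2, Timp3 and Timp4 were fully separated, at an exact permutation p = 0.0286, the smallest this test can give, among 20 such tests, and Mmp9 had p = 0.114. That is 4 of the 9 members tested in limma plus Timp4, where 32.6% of the 12994 genes did not overlap. In the same test of the 4 EphrinB2 against the 4 vector libraries no member was separated, where 1.95% of genes were, and the p of Mmp9 was 0.171.

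The make-up of the inhibitor pool differed between media. Timp3 made up 1.30% and 7.23% of the summed FPKM of the 4 TIMP genes in EphrinB2 and 7.76% and 7.61% in vector cells under osteogenic differentiation, against 32.2% and 40.5% in EphrinB2 and 36.0% and 35.2% in vector cells in complete medium. The summed TIMP level was 827 and 656 FPKM in EphrinB2 and 598 and 622 FPKM in vector cells under osteogenic differentiation, and 1273 and 1291 FPKM in EphrinB2 and 1231 and 1203 FPKM in vector cells in complete medium. The summed level of the 6 metalloproteinases was 761 and 540 FPKM in EphrinB2 and 554 and 564 FPKM in vector cells under osteogenic differentiation, and 576 and 572 FPKM in EphrinB2 and 624 and 594 FPKM in vector cells in complete medium. TIMP over metalloproteinase transcript was therefore 1.09 and 1.21 in EphrinB2 and 1.08 and 1.10 in vector cells under osteogenic differentiation, and 2.21 and 2.26 in EphrinB2 and 1.97 and 2.03 in vector cells in complete medium. The osteogenic libraries did not overlap with the others in this ratio, which compares transcript levels and not active enzyme. Summed fibroblast markers were also lower under osteogenic differentiation, 2961 to 3245 FPKM in EphrinB2 and 2823 to 2886 FPKM in vector cells, against 5311 to 6190 FPKM in EphrinB2 and 5006 to 5190 FPKM in vector cells in complete medium. Of these 10 markers 3 fell (Col1a1, Col1a2 and Col3a1) and 1 rose (Dcn) in each kind of cell (limma, adjusted p under 0.05). Pdgfra, Lum, Tcf21, Ddr2, Vim and Thy1 did not pass. Of all tested genes 5.44% fell and 6.36% rose in EphrinB2 cells, and 3.11% fell and 4.41% rose in vector cells. The part of fibroblast markers in the ratio was not tested.

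**Figure D5:**
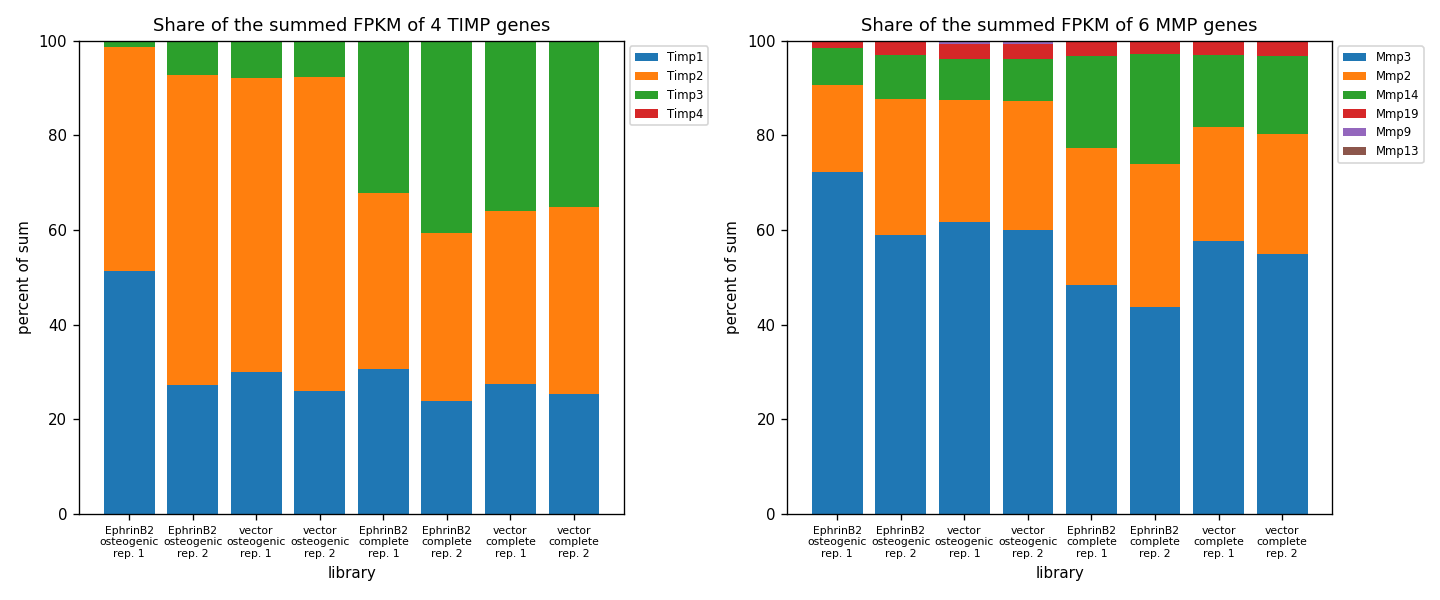
Share of each gene in the summed FPKM of the 4 TIMP genes (left) and of the 6 metalloproteinase genes (right), 1 stacked bar per library, from EphrinB2 osteogenic to vector complete. The Timp3 share lies between 1.30% and 7.76% in osteogenic libraries and between 32.2% and 40.5% in complete medium, and Mmp3 leads the metalloproteinases in every library.

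Beyond the members, the pathway was read from 5 lists chosen with earlier results of these data known. Each count below stands against 6.36% of all tested genes that rose and 5.44% that fell between media in EphrinB2 cells, and 4.41% that rose and 3.11% that fell in vector cells. Of 17 other metalloproteinases 8 were tested; 2 rose and 3 fell between media in EphrinB2 cells, and 1 rose and 3 fell in vector cells. The rises in EphrinB2 cells include Mmp27, which entered the test only through osteogenic libraries. Besides the genes of the chromosome 9 run, the membrane-type enzymes Mmp16 (-1.55 in EphrinB2 and -1.15 in vector cells; limma, adjusted p = 0.00624 and 0.0218) and Mmp17 (-0.68 and -0.75; adjusted p = 0.0226 and 0.02) fell, as their relative Mmp14 did. Mmp16 measured 0.868 ± 0.473 FPKM in EphrinB2 and 1.31 ± 0.0507 FPKM in vector cells under osteogenic differentiation, against 4.40 ± 0.895 and 4.14 ± 0.144 FPKM in EphrinB2 and vector cells in complete medium (SD, n = 2 each).

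Among 14 activators of pro-enzymes and genes of the plasmin system, 11 were tested and 2 fell in each kind of cell, with none rising. Pcsk5, a proprotein convertase, fell by 2.32 in EphrinB2 (limma, adjusted p = 0.000351) and by 2.23 in vector cells (adjusted p = 0.000436). Its levels were 2.81 ± 0.468 FPKM in EphrinB2 and 2.91 ± 0.106 FPKM in vector cells under osteogenic differentiation, against 18.0 ± 0.0314 and 17.3 ± 0.234 FPKM in EphrinB2 and vector cells in complete medium (SD, n = 2 each). Pcsk6, another convertase, fell by 1.13 in EphrinB2 cells (adjusted p = 0.022), and the protease inhibitor Serpine2 fell by 0.87 in vector cells (adjusted p = 0.0358).

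Among 14 other inhibitors and genes of docking or clearance of metalloproteinases, 10 were tested; 4 fell in EphrinB2 and 2 in vector cells, with none rising. Thbs1, a matrix protein that binds metalloproteinases, fell by 2.41 in EphrinB2 (limma, adjusted p = 0.00791) and by 2.20 in vector cells (adjusted p = 0.0132). The integrin chain Itgav fell by 1.40 and 1.19 in EphrinB2 and vector cells (adjusted p = 0.0107 and 0.0231), and its partner Itgb3 by 1.09 in EphrinB2 cells (adjusted p = 0.0168). Cd44, a surface receptor that can dock Mmp9, fell by 1.43 in EphrinB2 cells (adjusted p = 0.0106).

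Of 8 membrane ADAM proteases, relatives of the metalloproteinases that shed cell surface proteins, all 8 were tested. In EphrinB2 cells 2 rose and 2 fell, and in vector cells 2 rose and 1 fell. The rises include Adam33, which reached 1 FPKM only in osteogenic libraries, so its direction was partly fixed by the filter. It measured 1.05 and 1.55 FPKM in EphrinB2 and 1.51 and 1.70 FPKM in vector cells under osteogenic differentiation. In complete medium it measured 0.288 and 0.135 FPKM in EphrinB2 and 0.297 and 0.468 FPKM in vector cells. Adam8, best known from leukocytes, rose by 1.76 in EphrinB2 (limma, adjusted p = 0.00103) and by 1.60 in vector cells (adjusted p = 0.00169), to 41.0 ± 0.924 and 49.6 ± 1.40 FPKM in EphrinB2 and vector cells under osteogenic differentiation, against 11.4 ± 0.776 and 15.7 ± 0.375 FPKM in EphrinB2 and vector cells in complete medium (SD, n = 2 each). Adam12 fell by 1.87 in EphrinB2 (adjusted p = 0.00918) and by 1.23 in vector cells (adjusted p = 0.0484).

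Of 17 AP-1 and NF-kB factors and inducers of metalloproteinase transcription 15 were tested. Fos, a partner in AP-1 dimers, rose in both kinds of cell, by 1.51 in EphrinB2 (limma, adjusted p = 0.00238) and by 1.44 in vector cells (adjusted p = 0.00348). It measured 7.87 ± 0.189 FPKM in EphrinB2 and 8.27 ± 0.232 FPKM in vector cells under osteogenic differentiation, against 2.14 ± 0.551 and 2.41 ± 0.181 FPKM in EphrinB2 and vector cells in complete medium (SD, n = 2 each). Etv4 fell by 0.82 in EphrinB2 cells (adjusted p = 0.0451), and the other factors did not pass. Mmp13, whose window above holds the AP-1 letters, fell in the same comparisons, with a direction partly fixed by the filter. A link between Fos and Mmp13 was not tested.

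How far these calls of list genes rest on single libraries was examined with alternatives chosen after the data were seen. Of the 17 calls between media in EphrinB2 cells, 8 to 17 kept the threshold when 1 library was left out, with the fewest without EphrinB2 complete replicate 2, and 1 kept it when only the EphrinB2 libraries were fitted. Of the 12 calls in vector cells 3 to 12 did, with 3 without vector complete replicate 2 or vector osteogenic replicate 2, and all 12 kept it in the vector libraries alone. No call changed direction. Mmp12, Pcsk5 and Adam8 kept the threshold in both kinds of cell in each fit that left out 1 library (limma, highest adjusted p in either kind of cell 0.0264 for Mmp12, 0.0144 for Pcsk5 and 0.0414 for Adam8). Fos, Adam12, Cd44, Mmp16 and Thbs1 did so in EphrinB2 cells (highest adjusted p = 0.049, for Thbs1), and every other call was lost in at least 1 of these fits.

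None of the 52 tested genes of the 5 lists passed the threshold between EphrinB2 and vector cells in limma, and neither did the overexpressed Efnb2. At an unadjusted p under 0.05 there was 1 under osteogenic differentiation (Mmp8, the neutrophil collagenase), where 3.39% of all tested genes had such a p, and there were 4 in complete medium (Adam8, Fosl1, Mmp12 and Plaur), where 1.29% did. The interaction also gave 0 list genes past the threshold and 1 at an unadjusted p under 0.05 (Fosl1), against 1.65% of all tested genes.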

How the data were processed

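RNA-seq of 8 libraries was deposited by the authors as 1 table of FPKM values, per the file headers. The submitters' processing notes name CASAVA, HISAT2 2.0.5, featureCounts 1.5.0-p3, DESeq2 1.16.1 and mm10, without roles. Annotation release and strand setting: not given in the sources used here. Symbols and places came from GENCODE M21 (GRCm38), which held 54409 of 54532 identifiers. Depth was estimated from the steps of low FPKM values, of which 98.1% to 98.3% came out whole within 0.02 reads.

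Genes with at least 1 FPKM in at least 2 libraries were tested as log2(FPKM + 1) in limma 3.58.1 (R 4.3.3), with all 8 libraries in 1 model (4 residual and 2.72 prior degrees of freedom) and Benjamini-Hochberg adjustment over 12994 genes at 0.05. The fit was tested on simulated data. No column belonged to other samples. Replicate numbers follow accession order and pair nothing.

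The members, lists and library pair that stood apart were chosen with earlier results of these data known. Named were all members, Efnb2, coding genes that share exonic bases with a member, the 3 genes most like Mmp9 and Timp3, and up to 4 called genes a list with the smallest p. The other genes of the chromosome 9 run, and list genes named for an unadjusted p, were chosen after their values were seen. Promoter windows came from RefSeq (GRCm38.p6), which gave 7 of the 10 members. 18 alternative settings covered normalization, pseudocount, filter, weights, gene length and libraries left out.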

Additional observations from a re-analysis of the deposited data

How the results depend on the processing

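No paired analysis was possible because the labels give the groups no shared replicate numbers. Every call of a member between media kept its direction in each of the 18 alternatives in which that member was tested, and the alternatives that lost the threshold are named beside the call. With at least 1 FPKM in 4 libraries neither Mmp9 nor Mmp13 was tested, nor Mmp13 when a vector library in complete medium was left out. Of the called results for members and list genes, 554 alternative values kept the threshold and 151 lost it. No scaling moved the median of all genes by over 0.1.

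Members called between media numbered 4 in vector cells (2 with at least 1 FPKM in 4 libraries, 0 to 5 without 1 library) and 3 in EphrinB2 cells (0 with only the libraries compared, 1 with quality weights, 1 to 6 without 1 library). With the medium averaged they numbered 4 (2 with the stricter filter, 3 to 5 without 1 library). For EphrinB2 against vector cells 0 to 5 passed under osteogenic differentiation and 0 to 2 on average when 1 library was left out.

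Of all genes, 977 passed between media in vector cells, and 5273 with only the libraries compared, 5521 with quality weights, 1549 with the length trend removed, 5332 without both libraries that stood apart and 170 to 1750 without 1 library. The share that rose was 58.6%, against 45.6%, 48.1% and 45.5% in the fits with 5273, 5521 and 5332 genes. In EphrinB2 cells 1533 passed, of which 53.9% rose, against 153 with only the libraries compared (72.5% rose), 335 with quality weights, 3964 without both libraries and 649 to 5685 without 1 library. With the medium averaged 2568 passed, and 6316 without both libraries and 1207 to 5180 without 1. For EphrinB2 against vector cells 0 passed under osteogenic differentiation, and 14 with no filter, 1 without both libraries and 0 to 2768 without 1, the highest without EphrinB2 osteogenic replicate 2. In complete medium 1 passed, and 13 with no filter, 2 without both libraries, 0 to 1 without 1 library and 0 with a pseudocount of 0.1 or 0.5, the stricter filter, only the libraries compared, quality weights or the length trend removed. The averaged EphrinB2 effect gave 0, and 21 with no filter, 1 without both libraries and 0 to 425 without 1. The interaction gave 0, and 22 with no filter.

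The sign changes that follow concern members that did not pass in these comparisons, and the cause was not tested. For EphrinB2 against vector cells in complete medium, the sign of the log2 difference changed with quantile normalization for Timp2 (-0.058) and without both EphrinB2 libraries that stood apart for Timp3 (-0.080). Over the fits without 1 library it ran across 0 for Timp2 (-0.030 to 0.052), Timp1 (-0.059 to 0.28) and Timp3 (-0.080 to 0.27). For EphrinB2 against vector cells under osteogenic differentiation, the sign of the log2 difference changed with quantile normalization for Mmp3 (-0.068), Mmp14 (-0.12) and Timp2 (-0.29), without both EphrinB2 libraries that stood apart for Mmp2 (0.063), Mmp3 (-0.091) and Timp3 (0.018), with median scaling for Mmp2 (0.016) and with the length trend removed for Mmp3 (-0.020), Mmp13 (-0.11) and Timp2 (-0.000101). Over the fits without 1 library it ran across 0 for Timp2 (-0.0086 to 0.14), Mmp2 (-0.081 to 0.063), Mmp3 (-0.091 to 0.69) and Timp3 (-2.02 to 0.018). For osteogenic against complete medium in vector cells, the sign of the log2 difference changed with quantile normalization for Mmp2 (0.12), Mmp3 (0.025) and Mmp19 (0.049) and with the length trend removed for Mmp3 (0.0042) and Mmp19 (0.0069). Over the fits without 1 library it ran across 0 for Mmp3 (-0.087 to 0.059), Mmp19 (-0.030 to 0.022) and Mmp2 (-0.075 to 0.031). For osteogenic against complete medium in EphrinB2 cells, the log2 difference over the fits without 1 library ran across 0 for Mmp19 (-0.52 to 0.029) and Timp1 (-0.96 to 0.29). For the interaction, the sign of the log2 difference changed with quantile normalization for Timp2 (-0.24), without both EphrinB2 libraries that stood apart for Timp1 (-0.22) and Timp3 (0.098) and with the length trend removed for Timp2 (-0.0091). Over the fits without 1 library it ran across 0 for Timp2 (-0.020 to 0.13), Mmp19 (-0.51 to 0.033) and Timp1 (-0.047 to 1.20). For the averaged medium effect, the log2 difference over the fits without 1 library ran across 0 for Mmp19 (-0.26 to 0.012). For the averaged EphrinB2 effect, the sign of the log2 difference changed with quantile normalization for Mmp2 (-0.11), Mmp13 (0.084) and Timp2 (-0.18) and with a pseudocount of 0.1 for Mmp13 (0.074). Over the fits without 1 library it ran across 0 for Mmp3 (-0.23 to 0.16) and Timp3 (-0.96 to 0.057). The depth limits values under 1 FPKM, and 2 libraries a group limit every test.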
